A study of Equus caballus with 2 samples.

Results

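*MFGE8* and 7 genes of the same function, the bridging and recognition of apoptotic cells, were followed in cultured equine endometrial fibroblasts with and without TGF-β1. The 8 genes were taken by symbol from the 21426 features listed in both libraries, and all 8 were found. They comprise 4 secreted bridging proteins (*MFGE8*, *EDIL3*, *GAS6* and *PROS1*) and 4 receptors (*AXL*, *MERTK*, *TYRO3* and *CD36*).

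Dying cells expose the lipid phosphatidylserine on their surface, and neighbouring cells recognise it before they engulf the dying cell. MFGE8 and its homologue EDIL3 bind phosphatidylserine with their discoidin domains and αv integrins with an RGD motif, whereas GAS6 and protein S (*PROS1*) bind it with their Gla domains and engage the TAM receptor tyrosine kinases: GAS6 binds TYRO3, AXL and MERTK, and protein S binds TYRO3 and MERTK. MFGE8 is also studied as an antifibrotic protein in lung and liver, and TGF-β1 is a central profibrotic cytokine, which is the reason for looking at these genes in fibroblasts of the endometrium.

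The fibroblasts came from mares in the mid-luteal phase with healthy or only mildly fibrotic endometria. The ages of the mares are not given in the sources used here. All cells were grown at passage 3 on collagen-coated hydrogels, and their serum was replaced by 0.1% BSA from 48 to 72 h. In this phase of 24 h, the control group received no supplement and the TGF-β1 group received 10 ng/ml human recombinant TGF-β1. Cells of 4 mares were pooled for each group and made into 1 library. Another culture, treated with MFGE8, was not analysed here. With 1 library per group no test was possible, the mares cannot be told apart in these counts, and library preparation and treatment cannot be told apart. All intervals are at the 95% level and cover counting error only.

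Barcodes entered the comparison if their unique molecular identifiers (UMIs, 1 per captured transcript) numbered 20000 or more, came from 3500 or more genes and were less than 4% mitochondrial. These were 3865 of 4384 control barcodes with a median of 50313 UMIs, and 4513 of 5124 TGF-β1 barcodes with a median of 43142 UMIs. The 12 fibroblast markers were all above 1 CPM (UMIs per 1000000 UMIs of the kept cells), and their summed level was 24146 CPM in the control and 28387 CPM with TGF-β1. *FN1*, at 1934 and 6087 CPM, made most of this difference, 6 of the 12 were lower with TGF-β1, and *PDGFRA* (log2 ratio -1.60) and *THY1* (-1.30) were lower past 2-fold. All 10 endothelial markers and 10 of 12 macrophage and other leukocyte markers were under 1 CPM in both libraries. *PTPRC*, the common leukocyte antigen, had 1 UMI in the control and 0 with TGF-β1, and *CD163* was at 0 in both. The 2 libraries had 2 barcodes of kept cells in common.

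Among the bridging proteins, *MFGE8* was higher with TGF-β1, and *EDIL3*, *GAS6* and *PROS1* were lower. Among the receptors, *AXL* was lower and *MERTK* was higher, *TYRO3* differed by less than its counting error, and *CD36* was hardly detected. The changes were moderate. Where the 2 libraries averaged 10 CPM or more, none of the 4 genes was past 2-fold, a limit passed by 4.43% of all 7658 genes at this level (2.3% higher and 2.13% lower). At 1 CPM or more, none of 7 genes was past it either, beside 6.91% of 12116 genes. At 1.5-fold, 3 of these 7 genes (*EDIL3*, *GAS6* and *MERTK*) were called, beside 17% of all genes. All ratios are log2 ratios, with positive values where the TGF-β1 library was higher. Their median was -0.33 over the 7 genes and -0.01 over all genes with at least 1 CPM.

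**Figure D1:**
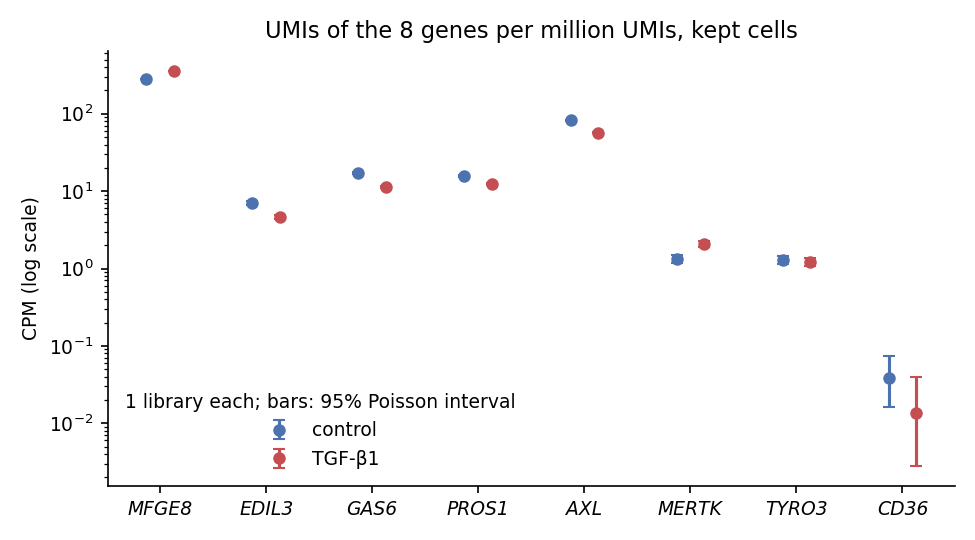
Levels of the 8 genes in CPM on a log scale (y axis) in kept cells (x axis, by gene; 1 point per library), with bars for the 95% Poisson interval. *MFGE8* and *MERTK* sit higher with TGF-β1, and *EDIL3*, *GAS6*, *PROS1* and *AXL* lower, with intervals that do not overlap, whereas those of *TYRO3* and *CD36* overlap.

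*MFGE8* (ENSECAG00000018875) had 59365 UMIs in the control and 78869 UMIs with TGF-β1. Its level was 282 CPM (280 to 284) in the control and 359 CPM (356 to 361) with TGF-β1. The TGF-β1 library was thus 1.27-fold higher, a log2 ratio of 0.35 (0.33 to 0.36). The counting error of so abundant a transcript is small, and the size of the difference was modest among all genes. Of the genes with at least 10 CPM, 14.2% had a higher ratio than *MFGE8*, and 27.9% had a ratio farther from 0.

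The difference was seen over the whole range of cells. After each cell was thinned to 20000 UMIs, so that both libraries were compared at equal depth, *MFGE8* was found in 97.2% of control cells (96.6 to 97.7) and 99.2% of TGF-β1 cells (98.9 to 99.4). Without thinning, the shares were 99.7% and 99.96%. No cell type known to lack *MFGE8* was set apart in these cultures, so that the share expected from free RNA was not measured. The thinned control cells had a mean of 5.62 and a median of 5 *MFGE8* UMIs, and the TGF-β1 cells a mean of 7.31 and a median of 7. The 10th percentile was 2 and 3 UMIs and the 90th percentile 11 and 13 UMIs, in control and TGF-β1 cells respectively. These percentiles were thus displaced by 1 to 2 UMIs per cell. Its spread relative to its mean was alike, with a variance of 2.61 times the mean in the control and 2.62 times with TGF-β1. The 10% of cells richest in *MFGE8* held 24.5% of its UMIs in the control and 22.6% with TGF-β1.

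**Figure D2:**
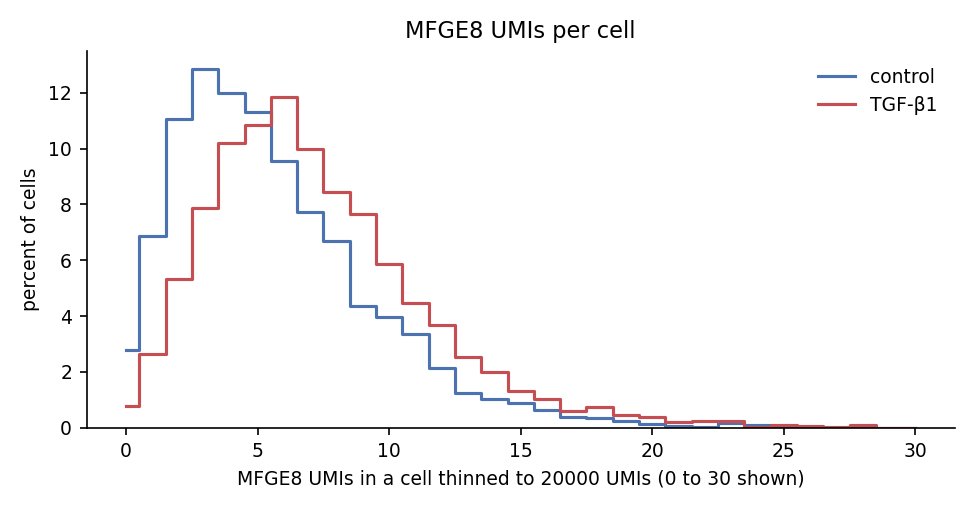
Distribution of *MFGE8* UMIs per cell after thinning to 20000 UMIs (x axis) as percent of cells (y axis) in the control and TGF-β1 libraries. The TGF-β1 curve is displaced to higher counts over its whole width, with a median of 7 instead of 5 UMIs, and few cells of either library are at 0.

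*EDIL3* (ENSECAG00000015388), which encodes the homologue of MFGE8 with EGF-like repeats and discoidin domains, went the other way. It had 1478 UMIs or 7.02 CPM (6.67 to 7.39) in the control and 1011 UMIs or 4.60 CPM (4.32 to 4.89) with TGF-β1. The log2 ratio was -0.61 (-0.73 to -0.49). At 20000 UMIs per cell, 11.4% of control cells (10.4 to 12.5) and 8.13% of TGF-β1 cells (7.35 to 8.97) held *EDIL3*, against 22.2% and 15.4% without thinning. Its counts were more uneven among cells than those of *GAS6* and *PROS1*, with a variance of 1.56 and 1.40 times the mean in control and TGF-β1 cells.

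*GAS6* (ENSECAG00000000014), a vitamin K dependent protein and a ligand of all TAM receptors, had 3597 UMIs or 17.1 CPM (16.5 to 17.7) in the control. With TGF-β1 it had 2481 UMIs or 11.3 CPM (10.9 to 11.7), and the log2 ratio was -0.60 (-0.67 to -0.52). *GAS6* was present in 26.8% of thinned control cells (25.4 to 28.2) and 17.3% of thinned TGF-β1 cells (16.2 to 18.5). Unthinned, these shares were 49.8% and 32.9%.

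*PROS1* (ENSECAG00000016509), which encodes the anticoagulant protein S and is a ligand of MERTK and TYRO3, was also lower, but to a lesser degree. Its level was 15.6 CPM (15 to 16.1) from 3276 UMIs in the control and 12.4 CPM (11.9 to 12.8) from 2718 UMIs with TGF-β1, a log2 ratio of -0.33 (-0.41 to -0.26). The share of cells with *PROS1* at equal depth was 25.7% (24.3 to 27.1) in the control and 21.1% (19.9 to 22.3) with TGF-β1, and 51.6% and 41.3% without thinning.

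The make-up of the bridging transcripts shifted accordingly. Of all UMIs of the 4 bridging genes, *MFGE8* held 87.7% (87.4 to 87.9) in the control and 92.7% (92.5 to 92.9) with TGF-β1. The share of *GAS6* was 5.31% and 2.92%, that of *PROS1* 4.84% and 3.19%, and that of *EDIL3* 2.18% and 1.19%, in control and TGF-β1 cells respectively. Within the pair of TAM ligands, *GAS6* made up 52.3% (51.1 to 53.5) of UMIs in the control and 47.7% (46.4 to 49.1) with TGF-β1. These are shares of UMIs, in which a transcript counts once whatever its length.

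*AXL* (ENSECAG00000011471), the TAM receptor that binds GAS6 with high affinity, had 17427 UMIs in the control and 12546 UMIs with TGF-β1. Its level was 82.8 CPM (81.6 to 84.0) in the control and 57.1 CPM (56.1 to 58.1) with TGF-β1. This was a reduction of 31.0%, or a log2 ratio of -0.54 (-0.57 to -0.50), and 14.7% of genes with at least 10 CPM had a ratio farther from 0. *AXL* was a common receptor of these cells: at equal depth it was present in 78.1% (76.8 to 79.4) of control and 65.3% of TGF-β1 cells (63.9 to 66.7). Without thinning, 96.2% and 87.1% of cells held it. The mean was 1.62 UMIs per thinned cell in the control and 1.13 with TGF-β1, and the variance was close to the mean, at 1.17 and 1.14 times its value.

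*MERTK* (ENSECAG00000023970), the TAM receptor best known from the clearance of dying cells by macrophages and retinal pigment epithelium, was the receptor whose ratio had an interval above 0. It had 279 UMIs or 1.33 CPM (1.17 to 1.49) in the control and 461 UMIs or 2.10 CPM (1.91 to 2.30) with TGF-β1. The log2 ratio was 0.66 (0.44 to 0.88), or 1.58-fold. Few cells carried it at equal depth, 2.43% (1.97 to 2.97) in the control and 3.52% (3.00 to 4.10) with TGF-β1, against 5.92% and 8.46% without thinning. The summed level of the 12 macrophage and other leukocyte markers was 57.7 CPM in the control and 53.5 CPM with TGF-β1. Of that sum, *CD68*, a lysosomal protein that is not confined to leukocytes, made up 42.6 and 43.1 CPM and *CD14* made up 14.0 and 9.75 CPM, and the other 10 markers were under 1 CPM each. Their part in the *MERTK* result was not tested.

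*TYRO3* (ENSECAG00000017862), the TAM receptor most prominent in the nervous system, had 274 UMIs or 1.30 CPM (1.15 to 1.47) in the control and 268 UMIs or 1.22 CPM (1.08 to 1.37) with TGF-β1. The log2 ratio was -0.09, with an interval of -0.34 to 0.15, so that a difference was not detectable at this depth. It was present in 2.92% (2.42 to 3.50) and 2.55% (2.11 to 3.05) of thinned cells, and in 6.86% and 5.63% of unthinned cells, in control and TGF-β1 libraries respectively.

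*CD36* (ENSECAG00000015229), a scavenger receptor of macrophages, adipocytes and endothelium, had 8 UMIs in the control and 3 UMIs with TGF-β1, each in a different cell. This corresponds to 0.038 CPM and 0.0137 CPM, and the log2 ratio of -1.48 had an interval of -4.03 to 0.58. Of all 17191 genes with more than 3 UMIs in either library, 13.7% were past 2-fold, as *CD36* nominally was. After thinning, 2 of 3865 control cells and 0 of 4513 TGF-β1 cells held it, and the latter, at a limit of 3 counts, allows a share of up to 0.0665% of cells with a UMI. No statement on the direction of *CD36* was possible. The defining adipocyte and endothelial markers were low as well, with summed levels of 4.63 and 5.60 CPM for 7 adipocyte genes and 1.99 and 1.67 CPM for 10 endothelial genes, in control and TGF-β1 libraries.

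Of the UMIs of the 3 TAM receptors, *AXL* held 96.9% (96.7 to 97.2) in the control and 94.5% (94.1 to 94.9) with TGF-β1. The share of *MERTK* was 1.55% in the control and 3.47% (3.17 to 3.8) with TGF-β1, and that of *TYRO3* was 1.52% and 2.02%. *AXL* thus remained the main TAM receptor transcript in both libraries, while the part held by *MERTK* was larger with TGF-β1.

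Co-detection of the other genes with *MFGE8* was examined in cells thinned to 20000 UMIs. Since nearly all cells held *MFGE8*, only 108 control cells and 36 TGF-β1 cells were left without it. The number of cells with both *MFGE8* and another of these genes, divided by the number expected if the genes were detected independently, lay between 0.983 and 1.01 for *EDIL3*, *GAS6*, *PROS1*, *MERTK*, *AXL* and *TYRO3* in both libraries. For example, *AXL* was found in 78.3% of control cells with *MFGE8* and 72.2% (62.8 to 80.4) of those without it. With TGF-β1 the shares were 65.2% and 69.4% (51.9 to 83.7). With *MFGE8* in nearly every cell, the observed number is bound to lie close to the expected one, so that this ratio could not show whether a gene goes with *MFGE8* or avoids it.

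A finer division of cells by their *MFGE8* count, chosen after the data were seen, compared larger numbers of cells. Cells were grouped into those with 0 to 3, 4 to 7, 8 to 11 and 12 or more *MFGE8* UMIs. These classes held 1298, 1569, 710 and 288 control cells and 753, 1936, 1192 and 632 TGF-β1 cells. The share of cells with *GAS6* was 25.6% (23.2 to 28.0) in the lowest and 30.6% (25.3 to 36.2) in the highest class of control cells. In TGF-β1 cells it was 15.1% (12.7 to 17.9) and 20.6% (17.5 to 23.9). The intervals of the outer classes overlapped in both libraries. *EDIL3* was found in 12.8% (11 to 14.7) in the lowest and 10.1% (6.85 to 14.1) in the highest class of control cells. With TGF-β1, 10.2% (8.15 to 12.6) and 5.70% (4.02 to 7.80) of cells in these classes held *EDIL3*, and these intervals did not overlap. For *AXL* the shares were 78.7% and 76.7% in the control and 69.3% (65.9 to 72.6) and 63.3% (59.4 to 67.1) with TGF-β1, where the intervals overlapped. In every class the shares of *AXL*, *GAS6* and *EDIL3* were lower with TGF-β1 than in the control, although for *EDIL3* the intervals of the libraries overlapped in 3 of the 4 classes. The cells of the classes came from 1 pool per library and differed in depth before thinning, with medians of 50774 UMIs in the lowest and 48098 in the highest control class and 43924 and 40210 in those of TGF-β1.

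Across single cells, the Pearson correlation of log2(1 + UMIs) with *MFGE8* ranged from -0.051 for *EDIL3* in the 3865 control cells to 0.050 for *GAS6* in the 4513 TGF-β1 cells. Within clusters, the value for *EDIL3* was -0.0235 in the control and -0.0236 with TGF-β1. In counts as sparse as these, neither these correlations nor the orders over the *MFGE8* classes are taken as a finding.

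Joint detection of the TAM ligand and receptor genes was also counted. Cells with both *GAS6* and its receptor gene *AXL* made up 20.6% of thinned control cells (19.4 to 21.9) and 11.1% of thinned TGF-β1 cells (10.2 to 12.1). Those with *PROS1* and *AXL*, whose products are not an established ligand and receptor pair, made up 19.7% (18.4 to 21.0) and 13.8% (12.8 to 14.8). For both pairs, the observed numbers were 0.982 to 1.00 times those expected from independent detection. For *GAS6* and *PROS1* together, 281 control cells were observed and 265 expected (1.06 times), and 150 and 165 TGF-β1 cells (0.910 times). For *EDIL3* and *GAS6* these were 131 and 118 control cells (1.11 times) and 53 and 63.6 TGF-β1 cells (0.833 times). No interval was set on these ratios, and their order between the libraries is not taken as a finding. Cells with *MFGE8*, *AXL* and at least 1 of *GAS6* and *PROS1* at the same time were 34.0% (32.5 to 35.5) of control and 22.6% of TGF-β1 cells (21.4 to 23.8). *MERTK* and *AXL* shared 1.99% (1.58 to 2.48) and 2.28% (1.87 to 2.76) of cells, 1.05 and 0.992 times the expected numbers.

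To see whether the differences were spread over the population, the cells of both libraries were integrated and clustered, which gave 8 clusters, numbered 0 to 7. Their leading genes were *CRABP2*, *MDFI* and *CDA* in cluster 0, *COL11A1*, *ICA1L* and *SEZ6L2* in cluster 1, *FAM216B*, *NLGN1* and *KCNQ5* in cluster 2, and *AREG*, *KRT7* and *KRT8* in cluster 3. Those of cluster 4 were *ALDH2*, *GRIK2* and *PTGS2*, those of cluster 5 *CFD*, *CRABP2* and *SOD3*, those of cluster 6 *TOP2A*, *DIAPH3* and *PRC1*, and those of cluster 7 *CA4*, *CDKN1A* and *CGA*. In cluster 6, 58.5% of control and 46.9% of TGF-β1 cells carried at least 3 cycling markers, and in the other clusters at most 1.85% did. *EDIL3* and *GAS6* were among the 2000 genes used for clustering and the other 6 genes were not. The ranges of *EDIL3* and *GAS6* over the clusters can thus be in part built in, and they are not an even comparison with those of the other genes. The clusters were rebuilt from these 2 libraries and were not matched to the numbers used in the study. The paper reports a cluster made up nearly entirely by the cells of a single mare. Whether a rebuilt cluster is of that kind was not tested.

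*MFGE8* was higher with TGF-β1 in all 8 clusters, and all 8 intervals of the ratio were above 0. The log2 ratio ranged from 0.26 in cluster 4 to 0.58 in cluster 5. Its level ranged from 225 CPM in cluster 4 to 388 CPM in cluster 5 in the control, and from 270 to 579 CPM in the same clusters with TGF-β1. In the order of levels, 3 of the 7 pairs of neighbouring clusters had overlapping intervals in either library, and the remaining pairs differed beyond them. The CFD-led cluster 5 therefore had the highest *MFGE8* level in both libraries and the widest difference between them, from 166 control and 190 TGF-β1 cells.

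**Figure D3:**
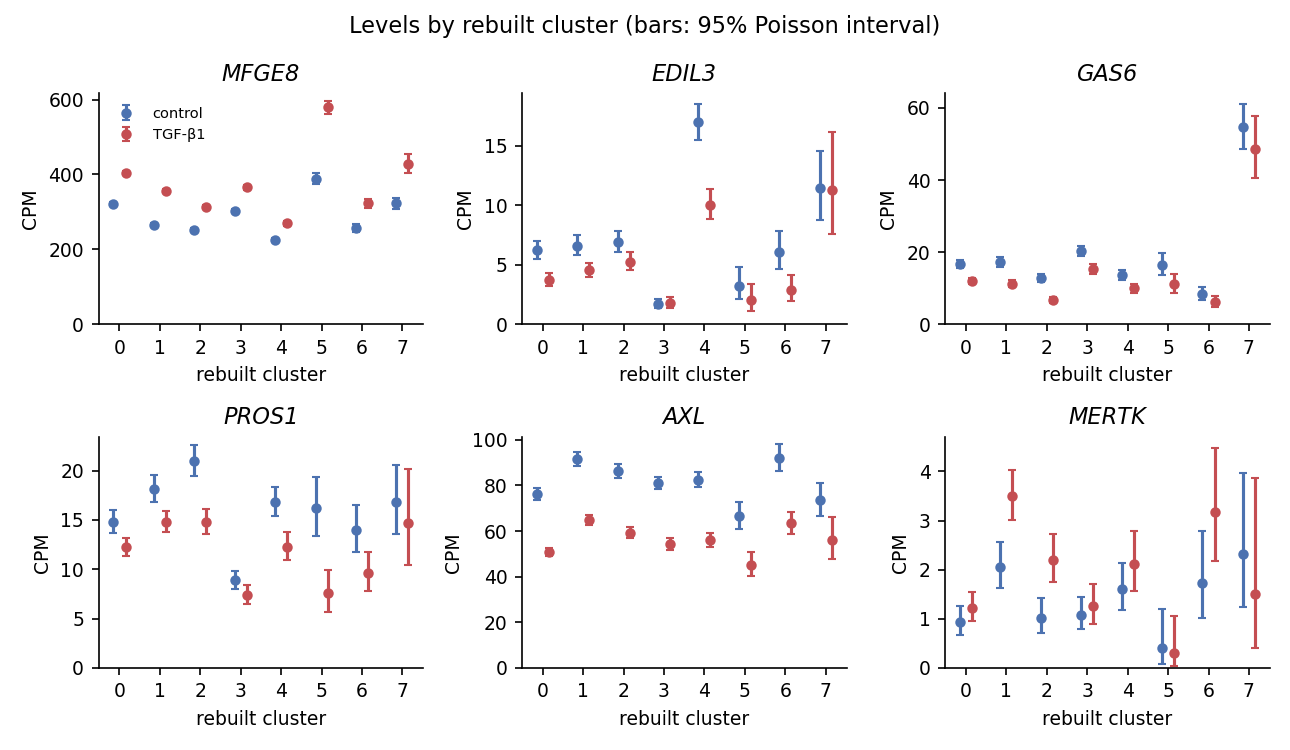
Levels in CPM (y axes) of 6 genes in the 8 rebuilt clusters (x axes) of the control and TGF-β1 libraries, with bars for the 95% Poisson interval. *MFGE8* is higher and *AXL* lower with TGF-β1 in all 8 clusters, *EDIL3* stands out in clusters 4 and 7, and *GAS6* in cluster 7.

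*AXL* varied little over the population and went in the direction opposite to *MFGE8*. It was lower with TGF-β1 in all 8 clusters with all 8 intervals below 0, and its log2 ratio ranged from -0.59 to -0.39. Its level varied only 1.38-fold over the clusters in the control, from 66.6 to 92.1 CPM, and 1.43-fold with TGF-β1, from 45.3 to 64.7 CPM.

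*GAS6* was lower with TGF-β1 in all 8 clusters, with 6 intervals below 0 and log2 ratios of -0.93 to -0.17. Its level stood out in the CA4-led cluster 7, at 54.7 CPM (48.7 to 61.2) in the control and 48.7 CPM (40.6 to 57.8) with TGF-β1. The next cluster reached 20.4 CPM in the control and 15.2 CPM with TGF-β1, and the cycling cluster 6 was lowest at 8.37 and 6.15 CPM. With TGF-β1, the interval of cluster 6 (4.71 to 7.88) overlapped that of cluster 2, which was at 6.72 CPM (5.92 to 7.61). Cluster 7 held 8.51% of *GAS6* UMIs from 2.72% of cells in the control and 5.20% from 1.20% with TGF-β1, and 54.3% and 55.6% of its thinned cells carried *GAS6*. In this cluster the interval of the *GAS6* ratio included 0. Given equal shares of the clusters in both libraries, the log2 ratio of *GAS6* was -0.52 instead of -0.60.

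*PROS1* was also lower in all 8 clusters, with 7 intervals below 0. Its log2 ratio was between -0.19 and -1.09, the latter in cluster 5, where *MFGE8* had its widest difference. *PROS1* was least abundant in the AREG-led cluster 3 in the control, at 8.91 CPM. With TGF-β1, cluster 3 at 7.43 CPM (6.5 to 8.45) and cluster 5 at 7.60 CPM (5.67 to 9.96) had overlapping intervals.

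*EDIL3* varied widely over the clusters. In the control it ranged from 1.71 CPM in cluster 3 to 17.0 CPM in the ALDH2-led cluster 4, which is 9.95-fold, and cluster 4 held 33.6% of its UMIs from 14.0% of cells. Cluster 3 was again lowest with TGF-β1, at 1.77 CPM. In the control, its interval and that of cluster 5 overlapped (1.34 to 2.15 and 2.09 to 4.85 CPM). They also did with TGF-β1 (1.33 to 2.30 and 1.12 to 3.43 CPM). With TGF-β1, cluster 4 had 10.1 CPM and cluster 7 had 11.3 CPM. Cluster 4 then held 23.5% of *EDIL3* UMIs from 10.9% of cells. *EDIL3* was lower with TGF-β1 in 7 clusters, with 5 intervals below 0, and its ratio in cluster 3 was 0.05 with an interval that included 0. In cluster 4, where *EDIL3* was most abundant in the control, *MFGE8* was lowest in both libraries.

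*MERTK* had enough UMIs for a ratio in 7 clusters and was higher with TGF-β1 in 6 of them. Only in 2 was the interval above 0. In cluster 1 its level was 2.05 CPM in the control and 3.49 CPM with TGF-β1, a log2 ratio of 0.77. In cluster 2 it was 1.02 and 2.19 CPM, a log2 ratio of 1.10. For *TYRO3*, a ratio was available in 7 clusters, 2 of them higher and 5 lower, and all 7 intervals included 0. Cluster 1 held 28.0% of *MERTK* UMIs from 16.9% of cells in the control and 40.1% from 22.9% with TGF-β1. With TGF-β1, *MERTK* was at 3.49 CPM (3.00 to 4.03) in cluster 1, and cluster 0 had 1.22 CPM (0.946 to 1.55). In the order of cluster levels, the intervals of all 7 pairs of neighbours overlapped for *AXL*, *MERTK* and *TYRO3* in both libraries, although clusters farther apart could differ. For *PROS1* 6 pairs in the control and 7 with TGF-β1 overlapped, for *EDIL3* 5 and 6, and for *GAS6* 4 and 4.

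**Figure D4:**
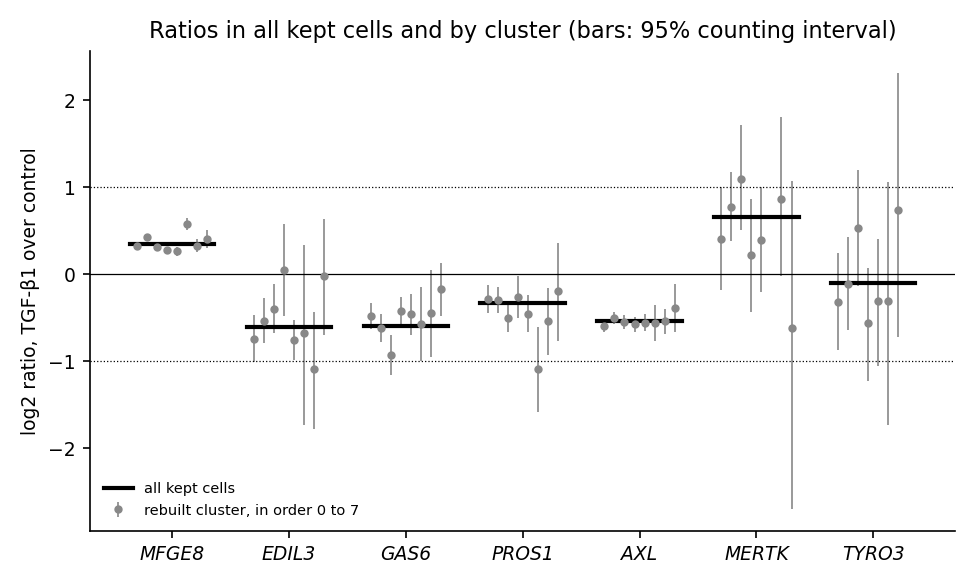
Log2 ratio of TGF-β1 over control (y axis) for 7 genes (x axis) in all kept cells (horizontal bars) and in each rebuilt cluster in the order 0 to 7 (points, with 95% counting intervals). The points of *MFGE8* lie above 0 and those of *AXL*, *GAS6* and *PROS1* below 0 in every cluster, whereas those of *MERTK* and *TYRO3* scatter with wide intervals.

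Markers of other cell types and states moved between the libraries as well. The summed level of the 7 epithelial markers found was 134 CPM in the control and 12.3 CPM with TGF-β1, of which *KRT8* alone made up 114 and 4.48 CPM. The 9 smooth muscle and pericyte markers summed to 4629 and 5955 CPM, of which *ACTA2* made up 3608 and 4745 CPM, while *MYH11* at 42.9 and 25.3 CPM and *DES* at 646 and 569 CPM went the other way. The part of these shifts in the results was not tested. The 9 cycling markers found summed to 66.7 and 47.6 CPM. Without the cells that carried at least 3 cycling markers, the ratios of the 8 genes moved by less than their counting error.

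The other genes of apoptotic-cell recognition were taken from 6 lists with 132 genes, of which 121 were found by symbol and 74 averaged 10 CPM or more. Of these 74, 6 were past 2-fold, or 8.11%, beside the 4.43% of all genes. With TGF-β1, *ITGB3*, *ITGA5* and *ATP11A* were higher and *ITGB8*, *LGALS3* and *CPXM1* lower. *ITGA5* lay at the limit, and 5 of the 74 passed under 5 of 9 alternatives, chosen after the data were seen, in which its log2 ratio was 0.98 to 1.00. The median log2 ratio over the 74 genes was 0.05, beside 0.01 over all genes at this level. Each of the genes with at least 10 CPM that are named here by rule had the same direction in all 8 clusters.

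Integrin subunits, among them those of the αv integrins through which MFGE8 and EDIL3 attach to the engulfing cell, moved in both directions. Of 9 genes, 8 were found and 6 were at 10 CPM or more, 4 of them higher and 2 lower, with a median log2 ratio of 0.59. *ITGB3*, the β3 chain of the vitronectin receptor, was at 6.31 CPM in the control and 16.6 CPM with TGF-β1, a log2 ratio of 1.39 (1.30 to 1.48). Cells with *ITGB3* at equal depth were 11% in the control and 25% with TGF-β1. *ITGB5*, the β chain of another MFGE8-binding αv integrin, was at 69.7 and 122 CPM, a log2 ratio of 0.81. *ITGA5*, the α chain of the fibronectin receptor, was at 63.0 and 126 CPM, a log2 ratio of 1.00 (0.97 to 1.03). *ITGB8*, the β chain of an integrin that activates latent TGF-β, went from 15.8 CPM to 4.74 CPM, a log2 ratio of -1.73. *ITGAV*, the α chain that pairs with these β chains, was not found by symbol and no value is given. *ITGB5* is named here after its values were seen.

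Of 37 other engulfment receptors and bridging proteins, 33 were found and 16 had 10 CPM or more, of which 6 were higher and 10 lower, with a median log2 ratio of -0.09. *LGALS3*, which encodes galectin-3, a MERTK ligand and glycan-binding protein, was at 558 CPM in the control and 198 CPM with TGF-β1, a log2 ratio of -1.5. The scavenger receptor *COLEC12* was at 47.5 and 30.9 CPM, and *CD14*, a receptor for lipopolysaccharide and dying cells, at 14.0 and 9.75 CPM. Below this level, and chosen after its values were seen, the scavenger receptor *MSR1* had 21 UMIs in the control and 532 UMIs with TGF-β1. Its level was 0.0998 and 2.42 CPM, a log2 ratio of 4.60 (3.97 to 5.31), and 0.155% and 3.06% of thinned cells held it.

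The lists also covered the machinery downstream of the receptors. Of 36 genes of engulfment signalling and digestion, 35 were found and 25 had 10 CPM or more. None of these was past 2-fold, 14 were higher and 11 lower, and the median log2 ratio was 0.06. The largest differences were those of *CTSD*, the lysosomal protease cathepsin D, with 325 CPM in the control and 168 CPM with TGF-β1, of *ELMO1*, a partner of the Rac activator DOCK1, with 28.6 and 53.4 CPM, and of the nuclear receptor *PPARD* with 9.99 and 17.5 CPM. Of 14 regulators of TAM receptors, 13 were found and 10 had 10 CPM or more, none past 2-fold, with a median of 0.11. Among them, *VKORC1L1*, which recycles the vitamin K needed to modify GAS6 and protein S, was at 43.4 and 63.1 CPM. *SOCS3*, an inhibitor of cytokine signalling, was at 17.7 and 12.5 CPM, and the ubiquitin ligase *CBLB* at 77.1 and 103 CPM.

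Of 22 genes that expose phosphatidylserine or give do-not-eat and find-me signals, 18 were found and 10 had 10 CPM or more, 5 higher and 5 lower. *ATP11A*, a flippase that returns phosphatidylserine to the inner leaflet, was at 4.47 CPM in the control and 16.6 CPM with TGF-β1, a log2 ratio of 1.89. The sphingosine kinase *SPHK2* was at 15.5 and 29.2 CPM, and *ANO5*, a member of the anoctamin family of channels and scramblases, at 10.4 and 15.5 CPM. Of the 14 genes that share the discoidin domain with *MFGE8*, all were found and 7 had 10 CPM or more, with a median log2 ratio of 0.10. *CPXM1*, a carboxypeptidase-like protein, was at 53.1 and 11.6 CPM, a log2 ratio of -2.19. The semaphorin and VEGF receptor *NRP2* was at 34.7 and 48.7 CPM, and *DCBLD1* at 13.6 and 18.9 CPM.

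**Figure D5:**
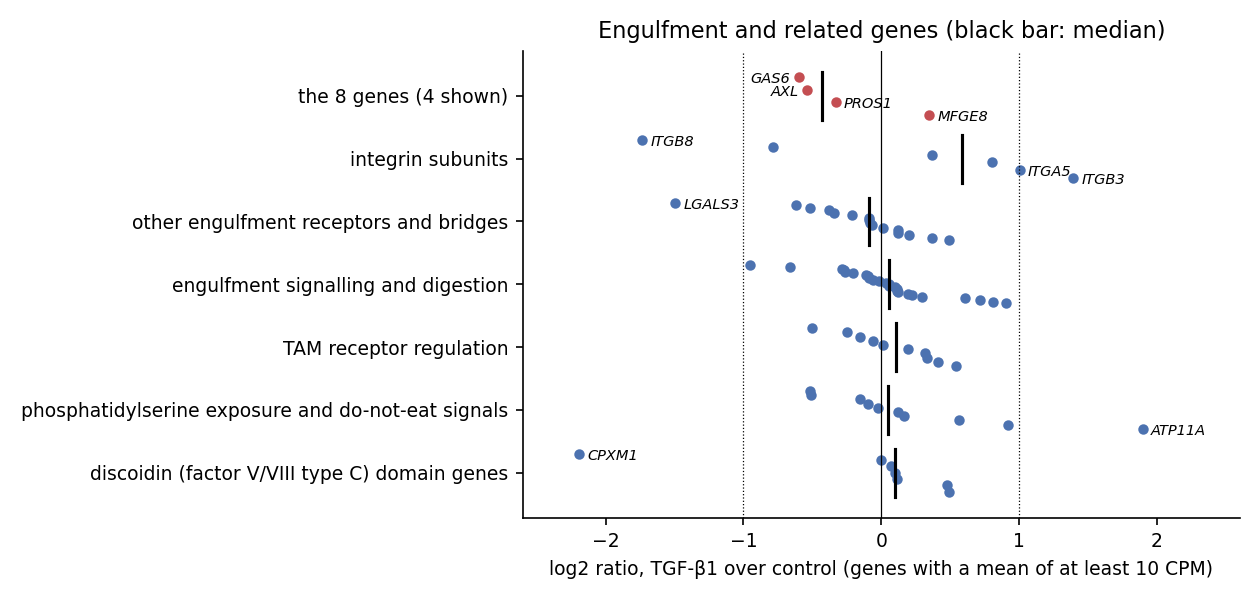
Log2 ratio of TGF-β1 over control (x axis) of genes that averaged 10 CPM or more, grouped by list (y axis), with a black bar at the median of each list and dotted lines at 2-fold. The 4 genes shown in the top row lie within 2-fold, and 6 of the 74 other genes lie beyond it.

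The genes most like *MFGE8* across cells were taken by Pearson correlation of log2(1 + UMIs) in thinned cells, ranked by the lower value of the 2 libraries among 7212 genes with a symbol and at least 10 CPM. These were *MYL6*, *S100A11*, *IGFBP7*, *CNN1*, *MYL9*, *MYL12A*, *RHOC*, *IGFBP6*, *HSPB1* and *UBB*. For *MYL6*, a myosin light chain, the correlation was 0.32 in both libraries, and within clusters 0.30 in the control and 0.24 with TGF-β1. For *CNN1*, the smooth muscle protein calponin, it was 0.25 and 0.24. The median of the lower value over the genes compared was -0.03. The points are cells of 1 pool per library, which share library and depth. Likeness across cells did not go with one direction between the libraries: the log2 ratio was 1.23 for *CNN1*, 0.50 for *IGFBP7*, 0.23 for *MYL6*, -0.02 for *MYL9* and -0.68 for *IGFBP6*. *GAS6* ranked 1535, *PROS1* 1569 and *AXL* 3464 in the same order. *GAS6* and *PROS1* averaged 14.2 and 14.0 CPM, whereas *IGFBP7*, the least abundant of the 10 genes in the control, was at 172 CPM there. Sparse counts draw a correlation towards 0, so that the low ranks of *GAS6*, *PROS1* and *AXL* are not taken as a finding.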

How the data were processed

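The authors deposited raw UMI counts of each gene in each barcode, from 10x Genomics 3′ libraries aligned with Cell Ranger to EquCab 3.0 with Ensembl genes. Version 7.1.0 of Cell Ranger is stated in the methods and 8.0.1 in the headers. The submitters' processing notes also list Seurat 5 and edgeR 4.2.2. The deposited counts were not normalized and still held barcodes that the study's filters exclude. The study's filters on UMIs, genes and mitochondrial share were applied. Its removal of doublets and assignment of mares rest on reads and were not repeated, so doublets remained.

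UMIs of the kept cells (210497250 in the control, 219731144 with TGF-β1) were summed per library and scaled to CPM with pandas 2.3.3, scipy 1.17.1 and numpy 2.4.6 under Python 3.11.15. Ratios are log2 without a pseudocount. Intervals are exact (Poisson for levels, Clopper-Pearson for shares and ratios), and the precision they give excludes differences between mares, cultures and library preparations. Cells were thinned to 20000 UMIs with a fixed seed. Clusters were made at resolution 0.5 in Seurat 5.3.0 (R 4.3.3) after integration by canonical correlation over 30 dimensions of the 2000 most variable log-normalized genes. Figures were drawn in matplotlib 3.10.9. Simulated data, in which 200 genes were changed, served to check the ratio script.

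The 8 genes, the lists and the markers were chosen with earlier results of these data known. From each list, genes with at least 10 CPM past 2-fold are named, or the 3 largest differences where fewer than 3 passed. CD14 has 2 features, which were summed. Absent symbols could not be matched to the reference gene table, which is of another assembly, and no coordinates are given. The alternatives were all barcodes, other UMI, mitochondrial, CPM and fold limits, removal of the cells with the most UMIs or with cycling markers, other scalings, equal cluster shares, other thinning depths and seeds, and other resolutions.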

Additional observations from a re-analysis of the deposited data

How the results depend on the processing

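Each of the 8 ratios was recomputed under 9 alternatives (all barcodes, a minimum of 10000 UMIs, a mitochondrial limit of 6%, removal of cells above the 98th percentile of UMIs, 3 other scalings, equal cluster shares, and cells with cycling markers left out), and none reversed. The log2 ratio of *MFGE8* ranged from 0.34 to 0.36, of *EDIL3* from -0.62 to -0.58, of *GAS6* from -0.63 to -0.52, of *PROS1* from -0.38 to -0.32, of *AXL* from -0.56 to -0.53, of *MERTK* from 0.61 to 0.70, of *TYRO3* from -0.13 to -0.09 and of *CD36* from -1.59 to -1.44. Only *GAS6* moved by more than its counting error, to -0.52 with equal cluster shares. The number of the 8 genes past 2-fold was 0 in the report. At 1.5-fold and a mean of 1 CPM or more, 3 of 7 passed, beside 17% of 12116 genes. At 2-fold without a CPM minimum, 1 of 8 passed (*CD36*, from 8 and 3 UMIs), beside 13.7% of 17191 genes. Of all 7658 genes with a mean of 10 CPM or more, 970 instead of 339 passed at 1.5-fold. At 2-fold, 837 of 12116 genes passed at 1 CPM and 2357 of 17191 without a minimum. Among the other genes of the pathway, 16 of 74 instead of 6 of 74 passed at 1.5-fold, beside 12.7% of all genes, and 14 of 96 passed 2-fold at a mean of 1 CPM, beside 6.91%, both limits chosen after seeing the data. Under the 9 alternatives above, also applied to this count after seeing the data, 5 or 6 of 74 passed, with *ITGA5* at the limit. The share of cells with *MFGE8* depended on depth: it was 99.7% of control and 99.96% of TGF-β1 cells without thinning, 88.4% and 94.7% at 10000 UMIs, and 90.3% and 96.5% with at least 2 UMIs required, and TGF-β1 cells were higher each time. The observed over expected co-detection with *MFGE8* lay between 0.976 and 1.01 in 72 alternative values, which says nothing on stability, since the ratio is bound near 1 where nearly all cells hold *MFGE8*. At resolutions of 0.3 and 0.8, *MFGE8* was again higher with TGF-β1 in all clusters. No paired analysis was possible because the assignment of cells to the 4 mares of each pool rests on reads and was not repeated here. With 1 library per group, no replicate could be left out. Depth limited *CD36*, *TYRO3* and *MERTK* by cluster.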

Other observations

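The barcodes outside the filters, 519 in the control and 611 in the TGF-β1 library, carried 7 of the 8 genes and no *CD36*. Their median was 3728 UMIs with 3.23% mitochondrial UMIs in the control and 6107 UMIs with 10.2% in the TGF-β1 library. *MFGE8* was at 226 CPM (211 to 242) in the control and 291 CPM (275 to 307) with TGF-β1, below the kept cells of the same library in both cases. *AXL* was at 124 and 89.0 CPM, above the kept cells, and lower with TGF-β1 as in them. *MERTK*, at 3.17 CPM (1.64 to 5.54) in the control, reached 7.85 CPM (5.47 to 10.9) with TGF-β1, where the kept cells had 2.10 CPM. These values come from 12 and 35 *MERTK* UMIs. *EDIL3* was at 13.7 CPM (10.3 to 18.0) in the control and 7.18 CPM (4.91 to 10.1) with TGF-β1, above the 7.02 and 4.60 CPM of the kept cells. *GAS6* with TGF-β1 was at 7.40 CPM (5.09 to 10.4), below their 11.3 CPM. For *PROS1* and *TYRO3* in both libraries, and for *GAS6* in the control, the intervals held the level of the kept cells.

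Some further genes of the lists that were past 2-fold lie below a mean of 10 CPM and were chosen after their values were seen. At a mean of 1 CPM or more, 14 of 96 list genes were past 2-fold, 6 higher and 8 lower with TGF-β1, beside 6.91% of all genes, and not all of them are named. With TGF-β1, the sphingosine kinase *SPHK1* had a log2 ratio of 1.05. *UCP2*, a mitochondrial carrier linked to the continued uptake of dying cells, had a ratio of -1.74. The phospholipid scramblase family members *PLSCR1* and *PLSCR4* had ratios of -1.67 and -1.48, the engulfment receptor relative *MEGF6* of -1.34 and the discoidin domain receptor *DDR1* of -1.13.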
